A study of Mus musculus with 7 samples.

Results

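The genes of oxidative phosphorylation were followed through 3 sorted mouse spleen populations on Illumina MouseRef-8 bead arrays. They were taken as the probes whose gene symbol on the platform starts with Nduf (complex I), Sdh (complex II), Uqcr (complex III), Cox and a digit (complex IV) or Atp5 (complex V). Of 98 genes with such a symbol, 88 had a probe above background (detection p under 0.01) on at least 2 arrays, of 7425 genes tested on the arrays. They fell into 39 genes for complex I, 7 for complex II, 6 for complex III, 21 for complex IV and 15 for complex V.

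The populations were 3 samples of plasmablasts (B220mid CD138+), 2 samples of plasma cells (B220low CD138+) and 2 samples of naive B cells (B220+ CD43-), 1 array each. Plasmablasts and plasma cells came from mice given LPS, a bacterial cell wall component that drives B cells to secrete antibody, and were taken at day 3. Naive B cells came from naive mice labelled as control for the agent, so LPS and cell state cannot be told apart in either comparison with them. All mice were labelled as 10-week-old female C57Bl/6J with no altered allele. Whether each sample came from its own mouse is not given in the labels, so the p-values cover no more than the spread among these samples, which may be technical. C57BL/6 mice are known to carry a shortened form of the Cox7a2l protein.

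Oxidative phosphorylation makes ATP in the inner mitochondrial membrane. Complexes I and II pass electrons from NADH and succinate to ubiquinone, complex III passes them on to cytochrome c, complex IV hands them to oxygen, and complex V, the ATP synthase, uses the proton gradient that complexes I, III and IV build. Each complex needs assembly factors, which insert metal and flavin cofactors or hold intermediates together and are not part of the finished enzyme. Antibody-secreting cells are known to carry more mitochondrial mass and to respire more than resting B cells.

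Of 25697 probes, 8817 to 9930 were above background on an array, and the median scanner signal ran from 153 to 186. Values below are normalized log2 signals, which compare a probe between arrays but not different probes with each other, and the number of arrays limits their precision. Arrays of the same population had a Pearson's r over genes of at least 0.994, against at most 0.828 between populations. Markers of the sort went with the labels in part. Sdc1, which encodes CD138, was at least 8.58-fold higher in plasmablasts and at least 8.81-fold higher in plasma cells than in naive B cells, and the B cell gene Ms4a1 was 6.50-fold lower in plasmablasts. Cd79a and Cd79b were lower, and Spn, Prdm1 and Xbp1 higher, in both LPS populations than in naive B cells. Between the LPS populations, Prdm1 was 3.15-fold lower in plasma cells than in plasmablasts (adjusted p = 1.68e-05). Xbp1 differed by -0.21 on the log2 scale between plasma cells and plasmablasts (adjusted p = 0.0532). Ptprc, the gene of CD45 and its B220 form, did not follow the B220mid and B220low labels: it was 1.85-fold higher in plasma cells than in plasmablasts (adjusted p = 0.00118) and differed by 0.19 on the log2 scale between plasma cells and naive B cells (adjusted p = 0.353). Which forms of CD45 the probe detects was not tested. Markers of other cells also differed between the populations. The summed linear signal of 16 myeloid markers was 5209 to 9520 on plasmablast arrays, 94571 to 94950 on plasma cell arrays and 27670 to 33079 on naive B cell arrays. Of the 16, 11 were below background on every plasmablast array, 2 (Cd163 and Vcam1) on every plasma cell array and 4 (Csf3r, Itgam, Mpo and S100a9) on every naive B cell array. The 9 erythroid and platelet markers summed to 368 to 408 on plasmablast arrays (all 9 below background), 506 to 648 on plasma cell arrays (7 below background) and 26723 to 36688 on naive B cell arrays (0 below background). The 9 T and NK cell markers summed to 2277 to 3148 on plasmablast arrays, 4445 to 4539 on plasma cell arrays and 4999 to 5633 on naive B cell arrays. Below background on every array were 3 of the 9 in plasmablasts, 0 in plasma cells and 7 in naive B cells. Most of the naive B cell sum was Cd2, and without it the other 8 summed to 1210 to 1876 on plasmablast arrays, 4210 to 4329 on plasma cell arrays and 423 to 466 on naive B cell arrays. Of the 9, 7 were called higher than in naive B cells in plasmablasts and 7 in plasma cells, with Cd2 called lower in both. The 7 below background in naive B cells passed the filter through the LPS populations, so these counts are a description. The part of these other cells in the results was not tested. On an array of sorted cells, fewer cells of a type and less RNA per cell cannot be told apart.

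Plasmablasts carried more signal than naive B cells for most oxidative phosphorylation genes, and plasma cells lay between them for many. Of the 88 genes, 85 were above background on all 7 arrays, and counts refer to these 85. The other 3 are described by themselves. Cox4i2 and Cox6a2 passed only through the LPS populations, and Ndufab1 only through plasmablasts. Between plasmablasts and naive B cells, limma called 47 of the 85 higher and 12 lower at an adjusted p under 0.05, or 55.3% and 14.1%. Most genes on these arrays passed that test in this comparison (73.1% of 7425, 35.3% higher and 37.8% lower). Of the 5549 genes above background on all 7 arrays, 36.8% were called higher and 36.9% lower, with a median log2 difference of 0.00, against 0.28 for the 85. All plasmablast arrays lay above both naive B cell arrays for 61 of the 85 genes and below them for 13. Of the 5549 genes, 2375 lay above in this way and 2350 below.

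Between plasma cells and naive B cells the 85 genes split almost evenly. 24 were called higher and 21 lower, or 28.2% and 24.7%, while 29.1% of the 5549 genes were called higher and 41.2% lower (71.1% of all 7425 genes passed in this comparison, 33.3% higher and 37.8% lower). The median log2 difference was 0.05 for the 85 and -0.14 for the 5549. Between plasma cells and plasmablasts, 4 were called higher and 45 lower, or 4.71% and 52.9%, with a median of -0.24. The share of lower calls was close to that of the 5549 genes, of which 24.4% were called higher and 50.3% lower with a median of -0.27 (74.7% of all 7425 passed, 28.7% higher and 46% lower). In place of quantile normalization, cyclic loess called 34 of the 85 higher and 17 lower in plasma cells than in naive B cells. Of all genes, 39.7% were then called higher and 30.4% lower in that comparison. Against plasmablasts, 7 of the 85 were called higher and 25 lower in plasma cells. There, 36.3% of all genes were then called higher and 32.9% lower. The 3 comparisons share arrays, so their counts are not independent of each other.

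Most changes were small. At 1.5-fold or more, 19 of the 85 were higher and 7 lower in plasmablasts than in naive B cells (24.2% and 24.5% of the 5549 genes, and 24.7% and 27.6% of all genes tested). In plasma cells against naive B cells, 8 were higher and 10 lower by that rule (19.2% and 26.3% of the 5549, and 25% and 25.9% of all genes). In plasma cells against plasmablasts, 1 was higher and 10 were lower (16.5% and 30.5% of the 5549, and 22% and 29.7% of all genes). The order of the population means was plasmablast, plasma cell, naive B cell from high to low for 41 of the 85 genes, or 48.2%, against 22.6% of the 5549.

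**Figure D1:**
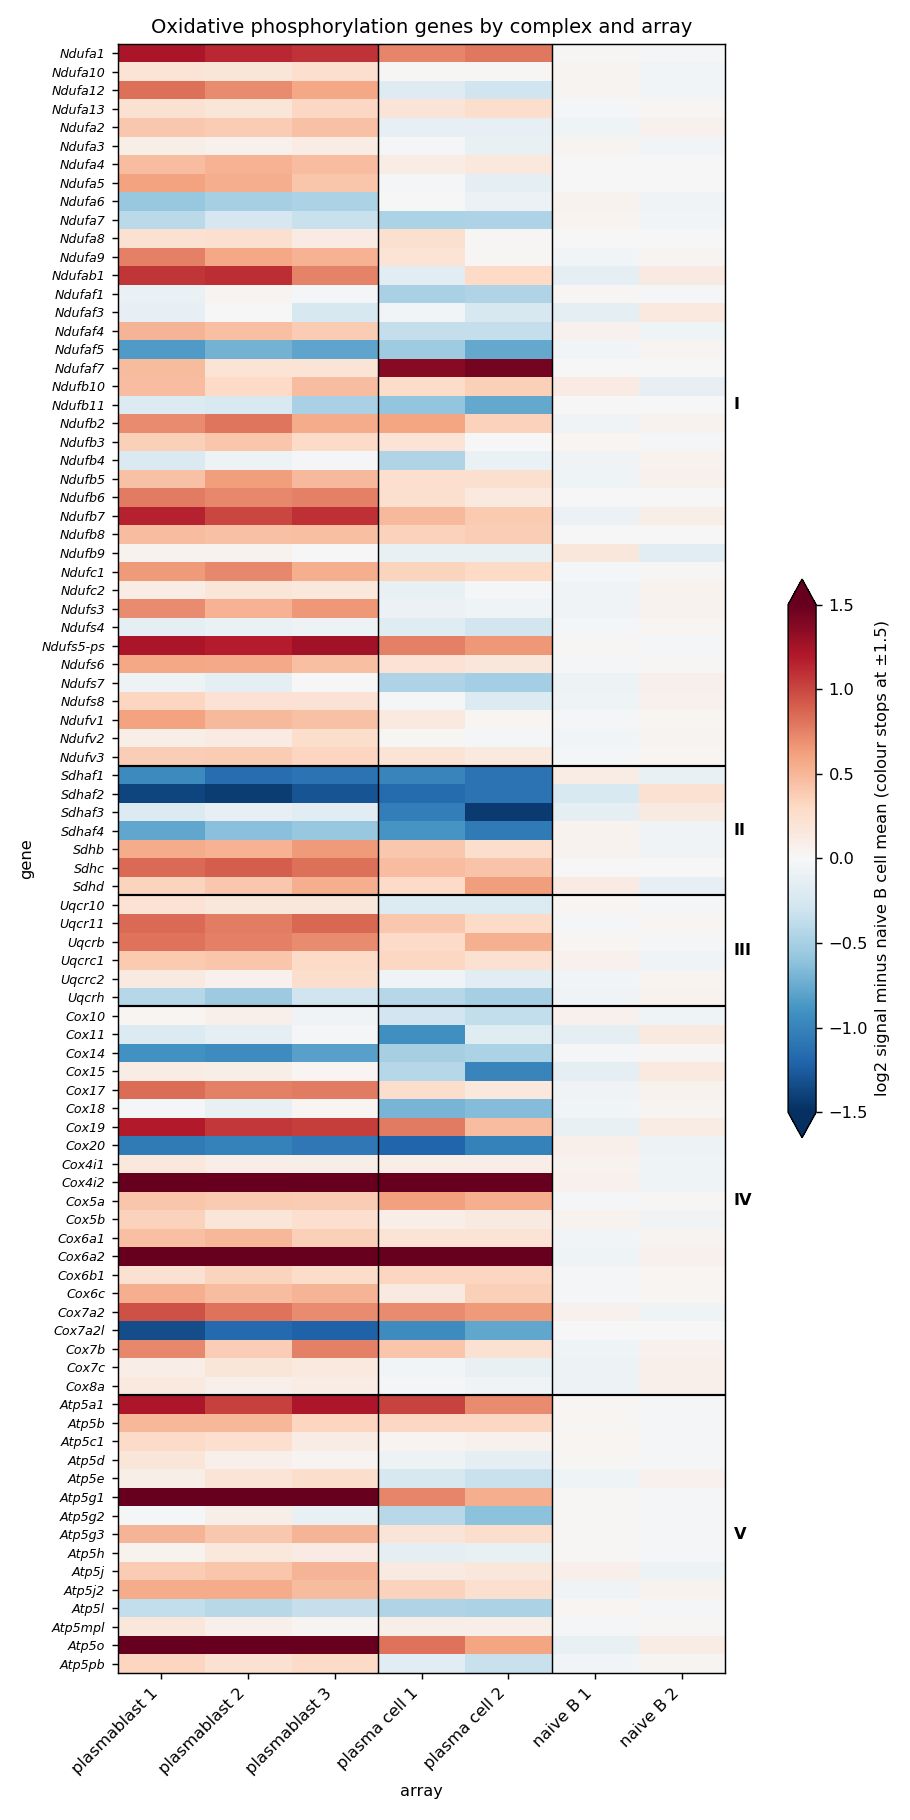
Normalized log2 signal of the 88 genes on each of the 7 arrays, minus the mean of the 2 naive B cell arrays, with genes grouped by complex (roman numerals at the right) and colours that stop at ±1.5. Most rows are red on the 3 plasmablast arrays and paler on the 2 plasma cell arrays, while Cox7a2l, Cox20 and the Sdhaf1, Sdhaf2 and Sdhaf4 genes are blue on all 5.

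The genes of the enzymes' own subunits and those of the assembly factors that carry the same prefixes had different counts. Of 65 subunit genes above background on all arrays, 41 were called higher and 5 lower in plasmablasts than in naive B cells (63.1% and 7.69%), with a median log2 difference of 0.36. Of 17 assembly factor genes with the same prefixes, 4 were called higher and 6 lower (23.5% and 35.3%), with a median of -0.12. Of the 5549 genes, 36.8% were called higher and 36.9% lower in this comparison. In plasma cells against naive B cells, 21 of the subunit genes were called higher and 8 lower (median 0.11), while 2 of the assembly factors were called higher and 12 lower (median -0.55). The subunit shares were 32.3% and 12.3% and the factor shares 11.8% and 70.6%, against 29.1% and 41.2% of the 5549. In plasma cells against plasmablasts, 1 subunit gene was called higher and 34 lower, and 2 assembly factors were called higher and 9 lower. The 52.3% of subunit genes and 52.9% of factors called lower were close to the 50.3% of the 5549. Whether the 2 groups of genes differ in their response was not tested. Assembly factors outside the prefixes had other counts: of 17, 8 were called higher and 2 lower in plasmablasts (median 0.22), and 2 higher and 5 lower in plasma cells (median -0.15), than in naive B cells. The median over the subunit genes, measured from the naive B cell mean, was 0.37, 0.38 and 0.33 on the plasmablast arrays and 0.14 and 0.09 on the plasma cell arrays. The same median over the assembly factors was -0.13, -0.12 and -0.05 on the plasmablast arrays and -0.50 and -0.48 on the plasma cell arrays.

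**Figure D2:**
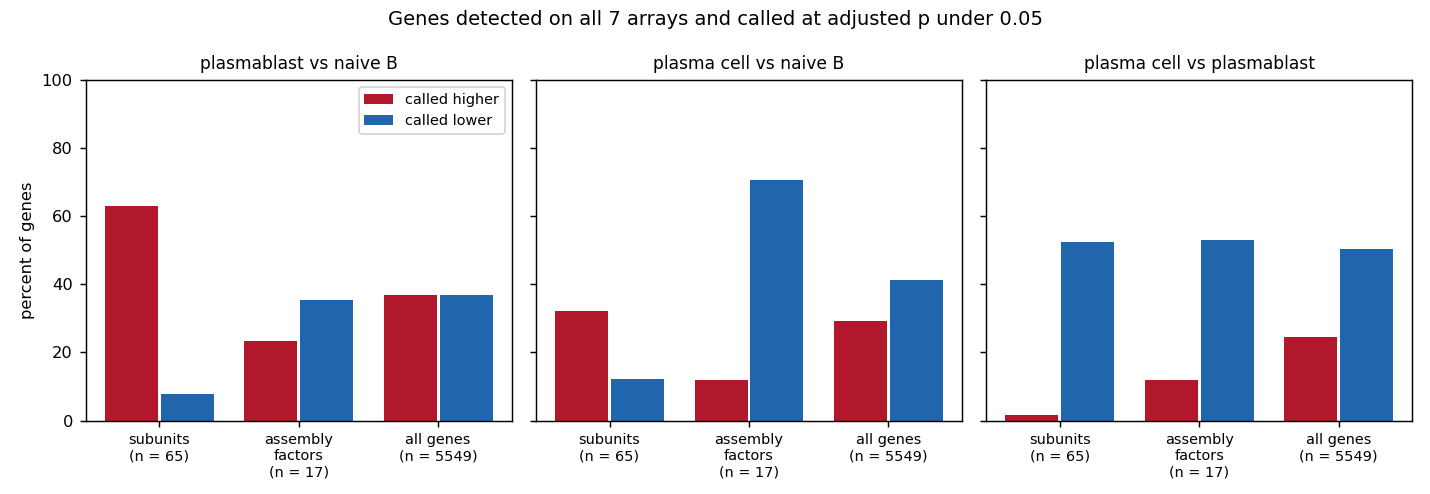
Percent of subunit genes, assembly factor genes with the same prefixes and all genes above background on all 7 arrays that limma called higher (red) or lower (blue) in each comparison. Subunit genes called higher make up 63.1% in plasmablasts against naive B cells, where all genes have 36.8%, and assembly factors called lower make up 70.6% in plasma cells against naive B cells, where all genes have 41.2%.

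Complex I, the NADH dehydrogenase, had 24 of 38 genes called higher and 4 lower in plasmablasts than in naive B cells (63.2% and 10.5%, against 36.8% and 36.9% of the 5549 genes), with a median log2 difference of 0.36. In plasma cells, 8 were called higher and 7 lower than in naive B cells (median 0.01), or 21.1% and 18.4%, against 29.1% and 41.2% of the 5549. Against plasmablasts, 2 were called higher and 21 lower in plasma cells, and the 55.3% called lower was close to the 50.3% of the 5549. Among the 5 core subunits, 3 (60%) were called higher in plasmablasts than in naive B cells and none lower. In plasma cells, 4 of the 5 (80%) were called lower than in plasmablasts, against 50.3% of the 5549. Of the 26 accessory subunits, which surround that core, 17 were called higher and 3 lower in plasmablasts than in naive B cells (65.4% and 11.5%).

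Ndufa1, a small membrane-arm subunit needed for assembly of the complex, had log2 signals of 14.52, 14.42 and 14.37 on the plasmablast arrays, 14.01 and 14.08 on the plasma cell arrays, and 13.31 and 13.26 on the naive B cell arrays. The 3 populations did not overlap, and plasmablasts stood highest. The log2 difference was 1.15 ± 0.08 (SE) for plasmablasts minus naive B cells, or 2.22-fold (adjusted p = 5.97e-06), 0.76 for plasma cells minus naive B cells (adjusted p = 1.41e-04) and -0.39 for plasma cells minus plasmablasts (adjusted p = 0.00336). Ndufb7, another membrane-arm subunit, read 10.35, 10.20 and 10.30 on the plasmablast arrays, 9.68 and 9.59 on the plasma cell arrays, and 9.11 and 9.28 on the naive B cell arrays. It kept the same order without overlap, at 2.12-fold higher in plasmablasts (adjusted p = 1.62e-05) and 1.36-fold higher in plasma cells (adjusted p = 0.00549) than in naive B cells. The largest difference of the complex in plasmablasts, 2.33-fold higher than in naive B cells (adjusted p = 3.37e-06), came from a probe that the platform names Ndufs5-ps, a pseudogene. Its signal cannot be told apart from that of Ndufs5 itself if the copies share the probe's sequence, so the gene behind it is uncertain.

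Ndufa12, an accessory subunit of the matrix arm that binds NADH, was called higher in plasmablasts alone. It read 12.62, 12.51 and 12.37 on the plasmablast arrays, 11.60 and 11.49 on the plasma cell arrays, and 11.83 and 11.75 on the naive B cell arrays. Plasmablasts stood above both other populations, which lay close together. The log2 difference was 0.71 for plasmablasts minus naive B cells (adjusted p = 2.84e-04), -0.25 for plasma cells minus naive B cells (adjusted p = 0.073) and -0.96 for plasma cells minus plasmablasts (adjusted p = 5.56e-05). The core subunit Ndufs7 was called lower in plasma cells than in naive B cells, by -0.48 on the log2 scale (adjusted p = 0.00249), while plasmablasts and naive B cells overlapped (-0.07, adjusted p = 0.498).

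A few complex I genes ran the other way. Ndufa6, a member of the LYR family that docks the acyl carrier protein on the complex, read 12.89, 12.96 and 12.99 on the plasmablast arrays, 13.45 and 13.37 on the plasma cell arrays, and 13.51 and 13.40 on the naive B cell arrays. It was lower in plasmablasts than in naive B cells by 1.42-fold (adjusted p = 7.39e-04) and higher in plasma cells than in plasmablasts by 1.38-fold (adjusted p = 0.00125), while plasma cells and naive B cells overlapped. Ndufa7 was lower than in naive B cells by -0.33 in plasmablasts (adjusted p = 0.00839) and by -0.47 in plasma cells (adjusted p = 0.00216) on the log2 scale. The plasmablast call for Ndufa7 was lost on leaving out naive B cell replicate 1 (-0.29, adjusted p = 0.0574), and with 75th percentile scaling (-0.06). Ndufb11, a membrane-arm subunit, had a dimmer probe that was called in no comparison. That probe differed by -0.33 between plasma cells and naive B cells (adjusted p = 0.17 in the limma fit of all detected probes). By its brighter probe, Ndufb11 fell by 0.68 on the log2 scale in plasma cells against naive B cells (adjusted p = 0.00126). Its difference of -0.31 in plasmablasts (adjusted p = 0.0365) was lost on leaving out either naive B cell replicate (adjusted p = 0.119 and 0.115) or without plasmablast replicate 3 (adjusted p = 0.0926). Its difference of -0.38 between plasma cells and plasmablasts (adjusted p = 0.015) was lost on leaving out plasma cell replicate 2 (adjusted p = 0.0994).

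Ndufab1, the mitochondrial acyl carrier protein, was above background on 2 of the 3 plasmablast arrays and on no other. Having passed the filter through plasmablasts alone, it had to be higher there, so its values are a description. It read 6.80, 6.83 and 6.47 on the plasmablast arrays, 5.57 and 6.04 on the plasma cell arrays, and 5.59 and 5.87 on the naive B cell arrays. Plasmablasts stood at least 1.13-fold higher than naive B cells. Ndufa4, long counted with complex I and later assigned to complex IV, was 1.40-fold higher in plasmablasts than in naive B cells (adjusted p = 6.16e-04) and differed by 0.13 in plasma cells (adjusted p = 0.188). Ndufv3, an accessory subunit of the NADH-binding arm, had 3 probes above background on at least 2 arrays, and they did not agree. The brightest differed by 0.36 between plasmablasts and naive B cells and another by 0.56, both called higher. The third differed by -0.81 and was called lower. It was above background in the 2 naive B cell samples only, so it had to be lower in plasmablasts.

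The assembly factors of complex I differed among themselves. Ndufaf7, a methyltransferase that modifies a core subunit, had the largest difference of the complex in plasma cells. It read 8.43, 8.17 and 8.17 on the plasmablast arrays, 9.32 and 9.40 on the plasma cell arrays, and 7.97 and 7.96 on the naive B cell arrays. Both plasma cell arrays stood above all others, 2.63-fold above naive B cells (adjusted p = 1.34e-05) and 2.14-fold above plasmablasts (adjusted p = 3.21e-05). The plasma cell arrays also had the highest sums of myeloid markers and of T and NK cell markers without Cd2. The myeloid sum was lowest on plasmablast arrays, the T and NK sum on naive B cell arrays. The part of these cells in the values of Ndufaf7 was not tested. Its smaller difference of 0.30 in plasmablasts against naive B cells (adjusted p = 0.0311) was lost on leaving out naive B cell replicate 1 (adjusted p = 0.1), naive B cell replicate 2 (0.108) or plasmablast replicate 1 (0.0776). Ndufaf5, a hydroxylase that acts on another core subunit, was lower than in naive B cells by 1.72-fold in plasmablasts and 1.57-fold in plasma cells (adjusted p = 1.54e-04 and 8.60e-04).

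Ndufaf4, which works with Ndufaf3 early in assembly, was the only gene of the 88 that was called in opposite directions against naive B cells. It read 11.31, 11.25 and 11.18 on the plasmablast arrays, 10.44 and 10.45 on the plasma cell arrays, and 10.87 and 10.74 on the naive B cell arrays. It was 1.36-fold higher in plasmablasts (adjusted p = 0.00188) and 1.28-fold lower in plasma cells (adjusted p = 0.0103), with no overlap between any populations. The plasma cell call was lost on leaving out naive B cell replicate 1 (-0.29, adjusted p = 0.0652).

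**Figure D3:**
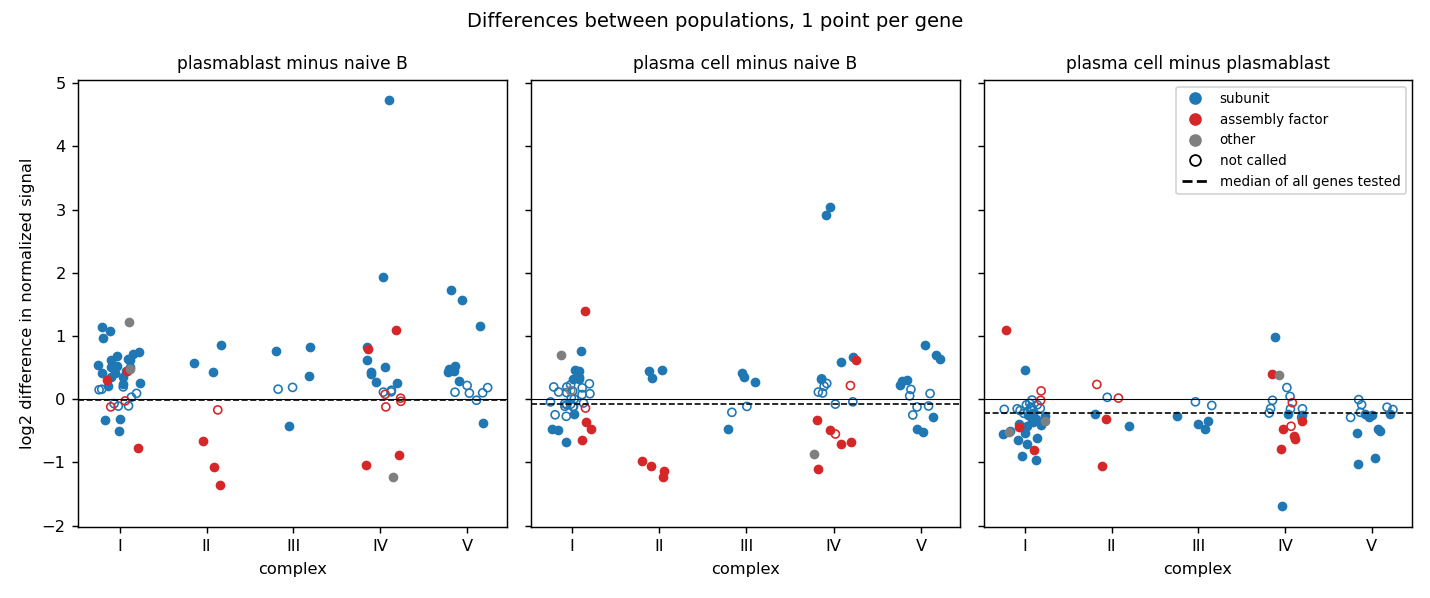
Log2 difference in normalized signal for each of the 88 genes by complex in the 3 comparisons. Filled points were called at an adjusted p under 0.05, colours mark subunits, assembly factors and other genes, and the dashed line is the median of the 7425 genes tested; complex II separates into subunits above 0 and assembly factors below 0 in both comparisons with naive B cells.

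Complex II, succinate dehydrogenase, is the only complex shared with the citric acid cycle. Its subunit genes and its assembly factor genes moved in opposite directions. All 3 measured subunits (Sdhb, Sdhc and Sdhd) were called higher than in naive B cells in plasmablasts and in plasma cells. Of the 4 assembly factors, 3 were called lower in plasmablasts and all 4 in plasma cells. Over the 7 genes, 3 were called higher and 3 lower in plasmablasts, and 3 and 4 in plasma cells, than in naive B cells. Of the 5549 genes, 36.8% were called higher and 36.9% lower in plasmablasts, and 29.1% and 41.2% in plasma cells. Sdha was not analysed here. To set the opposite movements beside the DNA in front of a gene, the 250 bases before the transcription start (RefSeq, GRCm38.p6, gene strand) are given for a gene that rose, Sdhb (chr4:140961021-140961270, + strand), and a gene that fell, Sdhaf2 (chr19:10525210-10525459, - strand). Capitals mark exact matches on either strand to CCGGAAG (the core that GA-binding protein, GABP, prefers) or GGGCGG (the Sp1 core).
Sdhb: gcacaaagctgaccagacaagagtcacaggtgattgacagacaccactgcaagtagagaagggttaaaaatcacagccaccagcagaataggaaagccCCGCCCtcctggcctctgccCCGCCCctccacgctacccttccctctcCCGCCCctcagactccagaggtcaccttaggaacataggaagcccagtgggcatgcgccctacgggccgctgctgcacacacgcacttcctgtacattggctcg
Sdhaf2: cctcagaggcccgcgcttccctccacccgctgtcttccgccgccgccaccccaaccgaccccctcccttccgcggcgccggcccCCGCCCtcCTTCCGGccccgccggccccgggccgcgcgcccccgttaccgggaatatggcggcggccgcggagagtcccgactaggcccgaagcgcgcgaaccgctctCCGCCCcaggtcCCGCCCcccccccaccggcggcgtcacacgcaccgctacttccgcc
The Sdhb window held 3 Sp1 matches, starting 152, 132 and 104 bases before the transcription start, and no GABP match. The Sdhaf2 window held 3 Sp1 matches and 1 GABP match, 158 bases before the start. These genes do not stand for the rest of the complex. Sdhd, which also rose, held 1 GABP match and no Sp1 match. Among the other factors, Sdhaf3 held 1 GABP match, while Sdhaf1 and Sdhaf4 held none. Sp1 matches numbered 4 for Sdhaf3 and 1 each for Sdhaf1 and Sdhaf4. Whether matches go with direction was not tested.

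Sdhb, the iron-sulfur subunit, read 11.85, 11.81 and 11.92 on the plasmablast arrays, 11.69 and 11.55 on the plasma cell arrays, and 11.34 and 11.24 on the naive B cell arrays. Populations did not overlap by this probe, the brighter one. By the other Sdhb probe, plasmablasts (11.51, 11.62 and 11.48) and plasma cells (11.52 and 11.50) overlapped. They differed by -0.03 (adjusted p = 0.806 in the limma fit of all detected probes), and both were called higher than naive B cells. The values that follow are from the brighter probe. Sdhb was 1.49-fold higher in plasmablasts (adjusted p = 5.10e-04) and 1.26-fold higher in plasma cells (adjusted p = 0.0155) than in naive B cells. Sdhc, a membrane anchor that binds heme and ubiquinone, had a larger difference. It read 11.50, 11.56 and 11.48 on the plasmablast arrays, 11.11 and 11.08 on the plasma cell arrays, and 10.65 and 10.65 on the naive B cell arrays, again without overlap, and was 1.82-fold higher in plasmablasts (adjusted p = 2.01e-05) and 1.36-fold higher in plasma cells (adjusted p = 0.00193). Sdhd, the other anchor, read 8.34, 8.41 and 8.55 on the plasmablast arrays, 8.29 and 8.64 on the plasma cell arrays, and 8.13 and 7.88 on the naive B cell arrays. Its plasmablast and plasma cell arrays overlapped and all lay above naive B cells, by 0.43 (adjusted p = 0.0198) and 0.46 (adjusted p = 0.0229) on the log2 scale. The call for Sdhb in plasma cells was lost on leaving out naive B cell replicate 2 (0.29, adjusted p = 0.0822) or likewise plasma cell replicate 1 (0.27, adjusted p = 0.0749). The plasmablast call for Sdhd was lost on leaving out naive B cell replicate 2 (0.30, adjusted p = 0.145) or plasmablast replicate 3 (0.37, adjusted p = 0.0547), and its plasma cell call on leaving out naive B cell replicate 2 (0.33, adjusted p = 0.136) or likewise plasma cell replicate 2 (0.28, adjusted p = 0.14).

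Sdhaf2, which helps attach the flavin to Sdha, read 8.81, 8.76 and 8.89 on the plasmablast arrays, 9.03 and 9.07 on the plasma cell arrays, and 9.95 and 10.42 on the naive B cell arrays. It fell in both LPS populations, by 2.57-fold in plasmablasts (adjusted p = 3.61e-05) and 2.19-fold in plasma cells (adjusted p = 2.20e-04) against naive B cells. Sdhaf1, which helps insert the iron-sulfur clusters of Sdhb, read 10.60, 10.42 and 10.45 on the plasmablast arrays, 10.56 and 10.45 on the plasma cell arrays, and 11.67 and 11.44 on the naive B cell arrays. It fell to about the same level in both, 2.10-fold below naive B cells in plasmablasts (adjusted p = 3.47e-05) and 2.07-fold below in plasma cells (adjusted p = 7.88e-05), and the LPS populations overlapped.

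Sdhaf3, which acts with Sdhaf1 on Sdhb, fell in plasma cells only. It read 9.06, 9.15 and 9.10 on the plasmablast arrays, 8.24 and 7.83 on the plasma cell arrays, and 9.14 and 9.40 on the naive B cell arrays. Plasmablasts and naive B cells overlapped (-0.17, adjusted p = 0.29), and plasma cells were 2.35-fold lower than naive B cells (adjusted p = 1.35e-04) and 2.09-fold lower than plasmablasts (adjusted p = 1.80e-04), so the difference between the LPS populations was itself tested. Sdhaf4, which protects the flavinated Sdha before it joins Sdhb, was 1.58-fold lower in plasmablasts (adjusted p = 4.90e-04) and 1.96-fold lower in plasma cells (adjusted p = 9.64e-05) than in naive B cells.

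**Figure D4:**
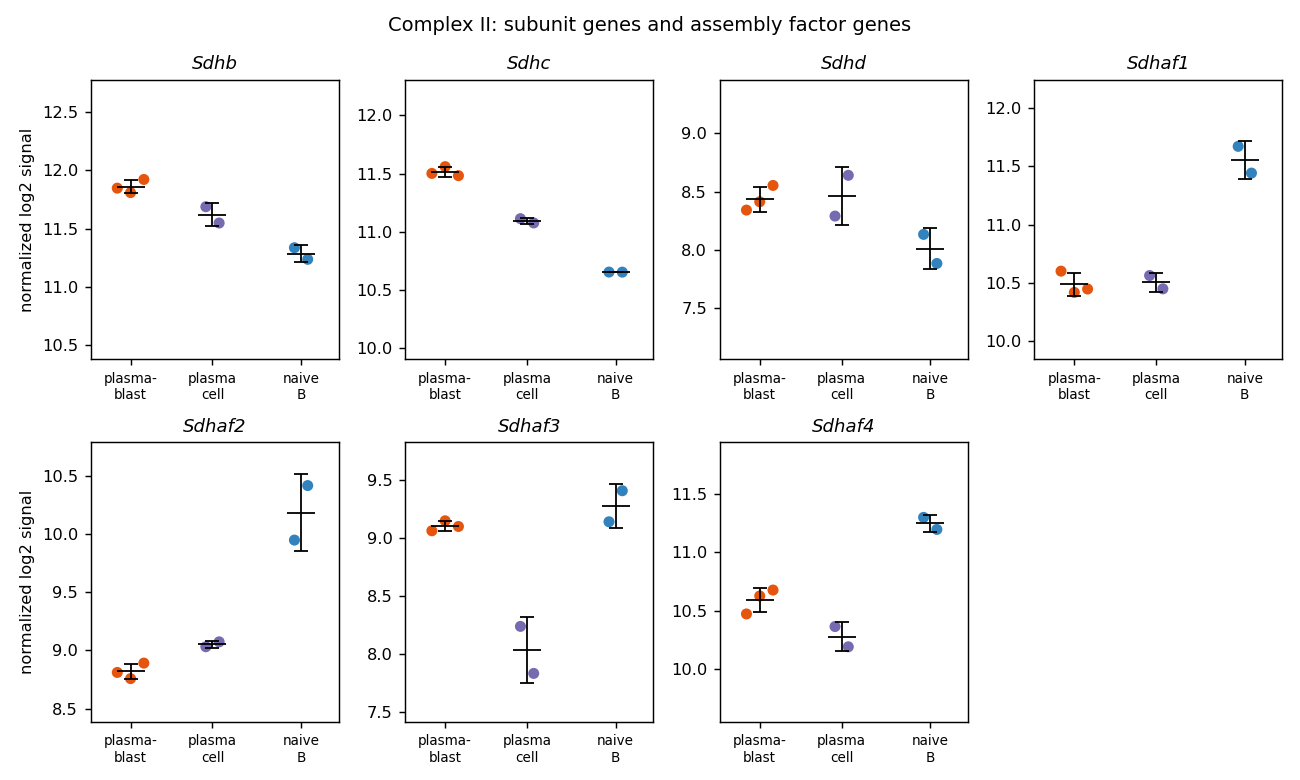
Normalized log2 signal of the 3 complex II subunit genes and the 4 assembly factor genes on each array (points), with the mean and SD of each population (3 plasmablast, 2 plasma cell and 2 naive B cell arrays); all panels span the same range. The naive B cell points are lowest for Sdhb, Sdhc and Sdhd and highest for Sdhaf1, Sdhaf2 and Sdhaf4.

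In complex III, 3 of 6 genes were called higher and 1 lower than in naive B cells, in plasmablasts and in plasma cells alike (50% and 16.7%, against 36.8% and 36.9% of the 5549 genes in plasmablasts and 29.1% and 41.2% in plasma cells). In plasma cells, 4 (66.7%) were called lower than in plasmablasts, against 50.3% of the 5549. Uqcr11, a small subunit at the edge of the complex, read 13.54, 13.46 and 13.55 on the plasmablast arrays, 13.09 and 12.99 on the plasma cell arrays, and 12.66 and 12.73 on the naive B cell arrays, without overlap and highest in plasmablasts. It was 1.77-fold higher in plasmablasts (adjusted p = 4.06e-05) and 1.27-fold higher in plasma cells (adjusted p = 0.00959) than in naive B cells. Uqcrb, which lies near the ubiquinone site, was 1.69-fold higher in plasmablasts (adjusted p = 1.82e-04) and 1.33-fold higher in plasma cells (adjusted p = 0.00941). Uqcrc1, a core protein, was 1.29-fold higher in plasmablasts (adjusted p = 0.00637). Uqcrh, the hinge protein between cytochrome c1 and cytochrome c, was the member that fell. It read 14.14, 14.01 and 14.26 on the plasmablast arrays, 14.13 and 14.06 on the plasma cell arrays, and 14.51 and 14.62 on the naive B cell arrays, with both LPS populations below naive B cells and overlapping each other, by -0.42 (adjusted p = 0.00507) and -0.46 (adjusted p = 0.00534) on the log2 scale. With 75th percentile scaling the plasmablast call for Uqcrh was lost (-0.08, adjusted p = 0.515). The plasma cell calls for Uqcr11, Uqcrb and Uqcrc1 were each lost on leaving out 1 array: naive B cell replicate 1 for Uqcr11 (0.31, adjusted p = 0.0551), plasma cell replicate 2 for Uqcrb (0.28, adjusted p = 0.0539), and for Uqcrc1 naive B cell replicate 2 (0.20, adjusted p = 0.196), plasma cell replicate 1 (0.22, adjusted p = 0.143) or likewise plasma cell replicate 2 (0.31, adjusted p = 0.0589), and also plasmablast replicate 1 (0.26) or 2 (0.27). The plasmablast call for Uqcrc1 was lost on leaving out naive B cell replicate 2 (0.30, adjusted p = 0.0551).

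In complex IV, cytochrome c oxidase, 2 forms of subunits that are used by particular tissues, Cox4i2 and Cox6a2, were above background in the LPS populations only. Having passed the filter through those populations, they had to differ from naive B cells, so their values are a description. Cox4i2, the alternative form of subunit IV that is known from lung and from hypoxic cells, read 9.94, 9.47 and 9.58 on the plasmablast arrays, 8.40 and 7.53 on the plasma cell arrays, and 4.99 and 4.87 on the naive B cell arrays. It was above background on all plasmablast and plasma cell arrays and on neither naive B cell array, and plasmablasts stood highest. It was at least 8.80-fold higher in plasmablasts and at least 2.71-fold higher in plasma cells than in naive B cells, measured up to the lowest signal above background there. Plasma cells were 3.24-fold lower than plasmablasts (adjusted p = 3.54e-04). Cox4i1, the common form, read 14.38, 14.32 and 14.31 on the plasmablast arrays, 14.32 and 14.32 on the plasma cell arrays, and 14.27 and 14.17 on the naive B cell arrays, and was called in no comparison.

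Cox6a2, the form of subunit VIa known from heart and skeletal muscle, also appeared in both LPS populations but stood highest in plasma cells. It read 7.66, 7.55 and 7.38 on the plasmablast arrays, 8.29 and 8.73 on the plasma cell arrays, and 5.53 and 5.66 on the naive B cell arrays. The populations did not overlap, and the naive B cell arrays were below background. Cox6a2 was at least 2.00-fold higher in plasmablasts and at least 3.95-fold higher in plasma cells than in naive B cells, again as a description. It was 1.97-fold higher in plasma cells than in plasmablasts (adjusted p = 4.54e-04). Cox6a1, the common form, was 1.35-fold higher in plasmablasts than in naive B cells (adjusted p = 0.00188). Cox4i2 and Cox6a2 thus had opposite orders between plasma cells and plasmablasts. The probes of the other tissue-restricted forms, Cox6b2, Cox7a1, Cox7b2, Cox8b and Cox8c, were above background on 0 arrays.

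Of the 19 complex IV genes above background on all arrays, 9 were called higher and 3 lower in plasmablasts than in naive B cells (47.4% and 15.8%). In plasma cells, 4 were called higher and 6 lower than in naive B cells (21.1% and 31.6%). Against plasmablasts, 2 were called higher and 7 lower in plasma cells (10.5% and 36.8%). The 5549 genes had 36.8% and 36.9%, 29.1% and 41.2%, and 24.4% and 50.3% in the same comparisons. Of the 10 common subunits of complex IV, 7 (70%) were called higher in plasmablasts than in naive B cells and none lower, and 3 (30%) were called higher in plasma cells. Cox7a2, a small subunit at the surface where complexes III and IV can meet, was 1.77-fold higher in plasmablasts (adjusted p = 1.18e-04) and 1.59-fold higher in plasma cells (adjusted p = 7.52e-04). Its relative Cox7a2l, whose full-length form is known to join complex III to complex IV in supercomplexes, moved the other way. It read 12.03, 12.20 and 12.15 on the plasmablast arrays, 12.42 and 12.58 on the plasma cell arrays, and 13.36 and 13.37 on the naive B cell arrays, so naive B cells stood highest and plasmablasts lowest, with no overlap. Cox7a2l was 2.36-fold lower in plasmablasts (adjusted p = 6.75e-06) and 1.81-fold lower in plasma cells (adjusted p = 1.20e-04) than in naive B cells, and 1.30-fold higher in plasma cells than in plasmablasts (adjusted p = 0.00642).

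The 8 assembly factors of complex IV split, with 2 called higher and 2 lower in plasmablasts than in naive B cells, and 1 called higher and 5 lower in plasma cells. In plasmablasts these were 25% and 25%, against 36.8% and 36.9% of the 5549 genes. In plasma cells they were 12.5% and 62.5%, against 29.1% and 41.2%. Cox19 and Cox17 serve copper delivery, and both were higher in plasmablasts. Cox19 read 11.19, 11.07 and 11.04 on the plasmablast arrays, 10.78 and 10.47 on the plasma cell arrays, and 9.89 and 10.12 on the naive B cell arrays and was 2.13-fold higher in plasmablasts (adjusted p = 7.39e-05) and 1.54-fold higher in plasma cells (adjusted p = 0.00343). Cox20 and Cox14, which look after newly made core subunits of the complex, were the factors called lower in plasmablasts. Cox20 read 9.82, 9.86 and 9.81 on the plasmablast arrays, 9.69 and 9.86 on the plasma cell arrays, and 10.96 and 10.80 on the naive B cell arrays, with the LPS populations together and below naive B cells, by 2.07-fold in plasmablasts (adjusted p = 1.99e-05) and 2.15-fold in plasma cells (adjusted p = 3.07e-05). Cox14 was 1.85-fold lower in plasmablasts (adjusted p = 2.30e-05) and 1.40-fold lower in plasma cells (adjusted p = 0.00151).

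Other complex IV factors fell in plasma cells alone by the test. Cox18, which inserts a core subunit into the membrane, differed by -0.03 in plasmablasts (adjusted p = 0.738) and -0.67 in plasma cells (adjusted p = 3.13e-04) from naive B cells, and by -0.64 between plasma cells and plasmablasts (adjusted p = 2.37e-04). Cox15, which makes heme A, showed -0.71 in plasma cells against naive B cells (adjusted p = 0.00772), a call lost on leaving out naive B cell replicate 2 (-0.56, adjusted p = 0.0562), and -0.79 against plasmablasts (adjusted p = 0.00268). The difference of -0.47 for Cox19 between plasma cells and plasmablasts (adjusted p = 0.00846) was lost on leaving out plasma cell replicate 2 (-0.31, adjusted p = 0.071).

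**Figure D5:**
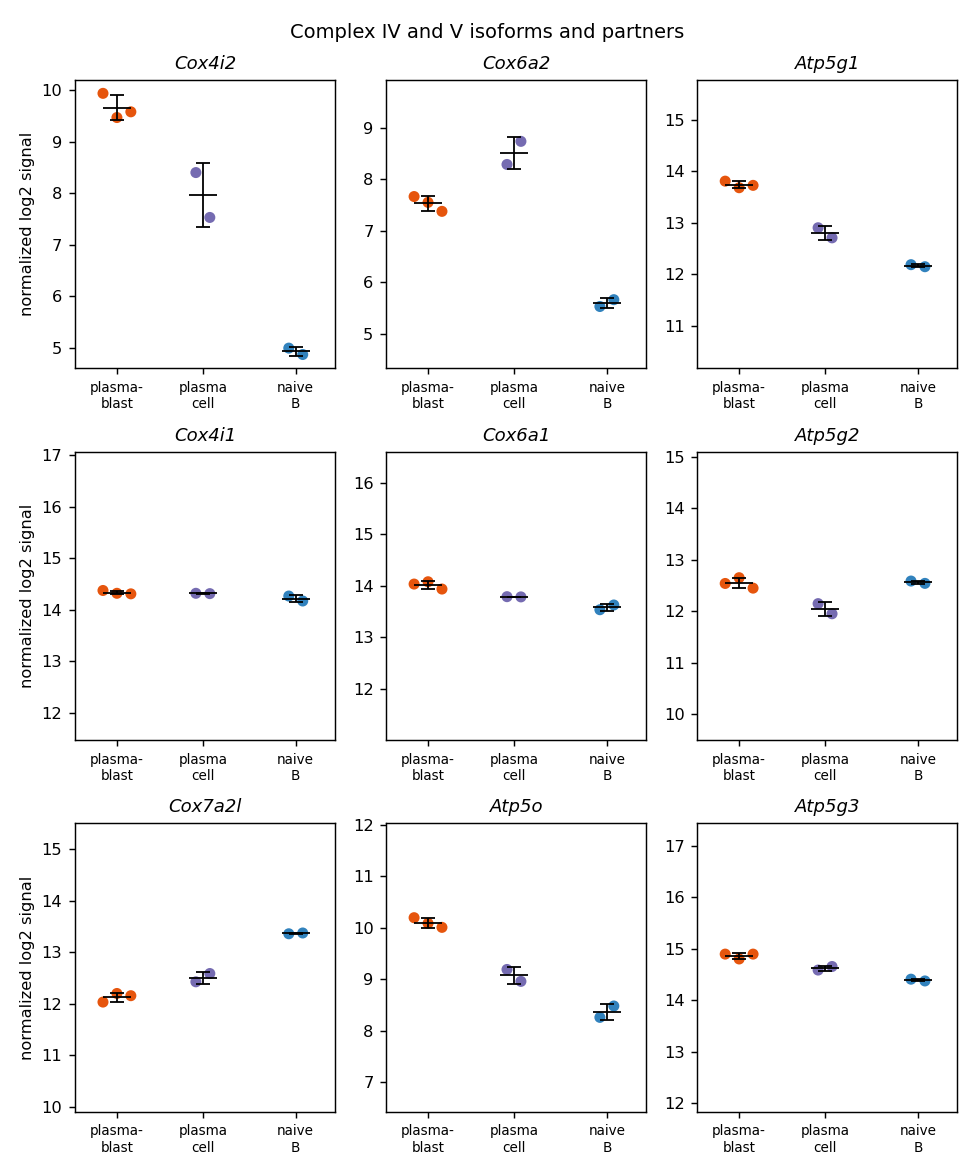
Normalized log2 signal on each array (points), with the mean and SD of each population, for forms of complex IV subunits (Cox4i2 and Cox4i1, Cox6a2 and Cox6a1), for the supercomplex factor Cox7a2l, and for complex V genes (Atp5g1, Atp5g2, Atp5g3 and Atp5o). All panels span the same range around the gene's own middle value, so heights compare between panels as differences only, and Cox4i2 has the widest gap between plasmablasts and naive B cells.

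In complex V, the ATP synthase, 8 of 15 genes were called higher and 1 lower in plasmablasts than in naive B cells, 6 higher and 3 lower in plasma cells than in naive B cells, and none higher and 9 lower in plasma cells than in plasmablasts. The shares called higher and lower were 53.3% and 6.67% in plasmablasts against naive B cells (36.8% and 36.9% of the 5549 genes) and 40% and 20% in plasma cells against naive B cells (29.1% and 41.2%). The 60% called lower in plasma cells against plasmablasts lay near the 50.3% of the 5549. The c subunit, whose ring turns in the membrane as protons pass, is encoded by 3 genes. Atp5g1, Atp5g2 and Atp5g3 give the same mature protein and differ in the presequence that brings it into mitochondria. As their levels moved apart, their upstream sequences are given for comparison: the 250 bases before the transcription start (RefSeq, GRCm38.p6, gene strand) of Atp5g1 (chr11:96075632-96075881, - strand), Atp5g2 (chr15:102671048-102671297, - strand) and Atp5g3 (chr2:73911327-73911576, - strand). Capitals mark the NRF1 letters on either strand, which are GCGCA, any base, then GCGC; NRF1 and GABP are nuclear factors known for controlling respiratory genes.
Atp5g1: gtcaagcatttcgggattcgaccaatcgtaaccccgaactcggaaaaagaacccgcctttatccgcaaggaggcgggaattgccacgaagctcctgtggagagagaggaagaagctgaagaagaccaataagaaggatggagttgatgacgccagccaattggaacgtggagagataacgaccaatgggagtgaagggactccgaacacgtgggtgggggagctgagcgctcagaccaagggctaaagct
Atp5g2: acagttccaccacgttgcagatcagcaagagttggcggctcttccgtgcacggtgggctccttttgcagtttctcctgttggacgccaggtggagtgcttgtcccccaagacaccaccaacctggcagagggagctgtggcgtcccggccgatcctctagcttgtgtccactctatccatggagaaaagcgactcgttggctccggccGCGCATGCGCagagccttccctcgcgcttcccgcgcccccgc
Atp5g3: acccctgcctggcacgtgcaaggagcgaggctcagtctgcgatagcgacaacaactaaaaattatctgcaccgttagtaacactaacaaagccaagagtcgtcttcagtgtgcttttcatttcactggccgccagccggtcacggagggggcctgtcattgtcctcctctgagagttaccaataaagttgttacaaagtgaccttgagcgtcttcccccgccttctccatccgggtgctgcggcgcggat
The Atp5g2 window held 1 NRF1 match, starting 42 bases before the transcription start, and the other windows held none. None of the 3 windows held CCGGAAG or GGGCGG.

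Atp5g1 read 13.80, 13.68 and 13.72 on the plasmablast arrays, 12.90 and 12.70 on the plasma cell arrays, and 12.18 and 12.14 on the naive B cell arrays. The populations did not overlap, and plasmablasts stood highest. Its log2 difference was 1.57 ± 0.09 (SE) for plasmablasts minus naive B cells, or 2.97-fold (adjusted p = 1.76e-06), 0.64 for plasma cells minus naive B cells (adjusted p = 6.74e-04) and -0.93 for plasma cells minus plasmablasts (adjusted p = 4.41e-05). Atp5g2 read 12.54, 12.65 and 12.45 on the plasmablast arrays, 12.15 and 11.95 on the plasma cell arrays, and 12.59 and 12.54 on the naive B cell arrays. Plasmablasts and naive B cells overlapped (-0.02, adjusted p = 0.884), and plasma cells lay below both, 1.43-fold below naive B cells (adjusted p = 0.00323). With 75th percentile scaling the plasmablast difference of Atp5g2 was 0.26. Atp5g3 read 14.89, 14.80 and 14.89 on the plasmablast arrays, 14.58 and 14.65 on the plasma cell arrays, and 14.41 and 14.37 on the naive B cell arrays, and was 1.39-fold higher in plasmablasts than in naive B cells (adjusted p = 9.25e-04). Its difference of 0.23 between plasma cells and naive B cells (adjusted p = 0.0478) was lost when any of the 7 arrays was left out (adjusted p = 0.0535 to 0.174). Its difference of -0.24 between plasma cells and plasmablasts (adjusted p = 0.0253) was lost on leaving out plasmablast replicate 1 (0.068) or 3 (0.0659) or likewise plasma cell replicate 1 (0.0968).

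Atp5o, the OSCP subunit at the top of the stalk that holds the F1 head still, had the largest difference of complex V. It read 10.19, 10.08 and 10.01 on the plasmablast arrays, 9.19 and 8.96 on the plasma cell arrays, and 8.26 and 8.48 on the naive B cell arrays. The populations did not overlap, and Atp5o was 3.31-fold higher in plasmablasts (adjusted p = 3.23e-06) and 1.63-fold higher in plasma cells (adjusted p = 0.00122) than in naive B cells, and 2.03-fold lower in plasma cells than in plasmablasts (adjusted p = 8.21e-05). Atp5a1, the alpha subunit of the F1 head, read 11.20, 11.02 and 11.21 on the plasmablast arrays, 11.01 and 10.70 on the plasma cell arrays, and 10.03 and 9.96 on the naive B cell arrays, and was 2.22-fold higher in plasmablasts (adjusted p = 3.75e-05) and 1.82-fold higher in plasma cells (adjusted p = 4.10e-04) than in naive B cells. The LPS populations differed by -0.29 for Atp5a1 (adjusted p = 0.0509).

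Atp5l, subunit g of the membrane part, was the complex V gene called lower in plasmablasts, at -0.38 against naive B cells (adjusted p = 0.00252), and it was also lower in plasma cells, at -0.47 (adjusted p = 0.00144). With 75th percentile scaling its plasmablast call was lost (-0.10, adjusted p = 0.296). Atp5pb, subunit b of the stalk, was 1.45-fold lower in plasma cells than in plasmablasts (adjusted p = 9.26e-04). Its difference of 0.28 in plasmablasts against naive B cells (adjusted p = 0.0223) was lost on leaving out naive B cell replicate 1 (0.24, adjusted p = 0.127) or plasmablast replicate 1 (0.26, adjusted p = 0.0648) or 3 (0.27, adjusted p = 0.0536). Atp5e, the epsilon subunit of the central stalk, was 1.38-fold lower in plasma cells than in plasmablasts (adjusted p = 0.00216).

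Promoter windows of 250 bases were found for 74 of the 88 genes in the RefSeq table. Counting both strands, the NRF1 letters were in 9 of the 74 (12.2%), against 3.86% of 27025 genes in the table, which also holds noncoding genes. The GABP letters were in 16 (21.6%, against 7.05% of all) and the Sp1 letters in 34 (45.9%, against 32.9%). Subunit genes and assembly factor genes held the NRF1 letters in 8 of 57 and 1 of 15 windows, the GABP letters in 11 and 5, and the Sp1 letters in 22 and 11. A match describes letters in the window and does not show that a factor binds there, and the matches shown above do not overlap each other.

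Genes that feed or serve the chain outside the 5 prefixes were followed too. Of 13 genes tested for electron carriers, ubiquinone synthesis and other routes into the chain, 5 were called higher and 3 lower in plasmablasts than in naive B cells, 3 higher and 4 lower in plasma cells than in naive B cells, and 1 higher and 6 lower in plasma cells than in plasmablasts. The lower calls were 23.1%, 30.8% and 46.2% of the 13, against 37.8%, 37.8% and 46% of all 7425 genes in the same comparisons. Coq9, a lipid-binding protein of ubiquinone synthesis, was 2.68-fold higher in plasmablasts (adjusted p = 1.25e-06) and 1.85-fold higher in plasma cells (adjusted p = 3.89e-05) than in naive B cells. Coq7, an enzyme of the same pathway, was 1.33-fold higher in plasmablasts (adjusted p = 0.00321) but 1.75-fold lower in plasma cells (adjusted p = 1.38e-04). Dhodh, which passes electrons from pyrimidine synthesis to ubiquinone, fell by 1.84-fold in plasmablasts and 2.90-fold in plasma cells (adjusted p = 5.90e-04 and 4.40e-05).

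Gpd2, the mitochondrial glycerol phosphate dehydrogenase that passes electrons from cytosolic NADH to ubiquinone, had the largest difference of this group. It read 8.09, 8.06 and 8.15 on the plasmablast arrays, 10.31 and 10.20 on the plasma cell arrays, and 9.65 and 9.82 on the naive B cell arrays. Plasma cells stood highest and plasmablasts lowest, 4.47-fold apart (adjusted p = 3.95e-07), with plasmablasts 3.11-fold below naive B cells (adjusted p = 1.24e-06). The summed myeloid markers had the same order of populations, and their part in the result was not tested. The probe of Cycs, which encodes cytochrome c, was below background in naive B cells and at most 6.80 on any array.

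Of 17 assembly factors outside the prefixes, 8 were called higher and 2 lower in plasmablasts than in naive B cells, 2 higher and 5 lower in plasma cells than in naive B cells, and none higher and 9 lower in plasma cells than in plasmablasts. All 7425 genes had 35.3% called higher in the first of these comparisons, where the 17 had 47.1%, and 46% called lower in the last, where the 17 had 52.9%. Ttc19, a factor of complex III, was 3.18-fold higher in plasmablasts (adjusted p = 1.97e-06) and 1.81-fold higher in plasma cells (adjusted p = 1.99e-04) than in naive B cells. Timmdc1 and Ecsit, factors of complex I, were 1.98-fold and 1.65-fold higher in plasmablasts (adjusted p = 2.19e-05 and 1.28e-04), and lower in plasma cells than in plasmablasts by 1.80-fold and 1.89-fold (adjusted p = 6.33e-05 and 3.70e-05). Coa3, a factor of complex IV, was lower by 1.49-fold in plasmablasts and 1.51-fold in plasma cells (adjusted p = 4.15e-04 and 6.46e-04).

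Of 14 regulators of respiratory and mitochondrial genes tested, 4 were called higher and 7 lower in plasmablasts than in naive B cells, none higher and 9 lower in plasma cells than in naive B cells, and 1 higher and 9 lower in plasma cells than in plasmablasts. The lower calls were 50%, 64.3% and 64.3% of the 14, against 37.8%, 37.8% and 46% of all 7425 genes. Tfam, which packages and transcribes mitochondrial DNA, read 10.69, 10.62 and 10.66 on the plasmablast arrays, 9.93 and 9.88 on the plasma cell arrays, and 11.41 and 11.58 on the naive B cell arrays, so naive B cells stood highest. It was 1.79-fold lower in plasmablasts (adjusted p = 4.59e-05) and 3.01-fold lower in plasma cells (adjusted p = 2.44e-06). Tfb1m, which methylates mitochondrial ribosomal RNA, was 3.24-fold higher in plasmablasts than in naive B cells (adjusted p = 8.64e-06) and 2.71-fold lower in plasma cells than in plasmablasts (adjusted p = 2.96e-05). Gabpa, the DNA-binding subunit of GABP, was 1.72-fold higher in plasmablasts than in naive B cells (adjusted p = 5.60e-04) and 2.09-fold lower in plasma cells than in plasmablasts (adjusted p = 1.00e-04).

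Esrra, a nuclear receptor that drives respiratory genes with its coactivators, read 8.87, 9.15 and 9.06 on the plasmablast arrays, 10.76 and 10.62 on the plasma cell arrays, and 10.77 and 10.59 on the naive B cell arrays. Plasmablasts alone stood low, 3.15-fold below naive B cells (adjusted p = 3.78e-06), and plasma cells were 3.18-fold above plasmablasts (adjusted p = 5.24e-06). Plasmablast arrays also had the lowest sum of myeloid markers. Myc, which drives growth and mitochondrial biogenesis, was below background on every plasmablast and plasma cell array. It stood at least 2.68-fold lower in plasmablasts and at least 3.51-fold lower in plasma cells than in naive B cells. Having passed the filter through naive B cells alone, it had to be lower in the others, so its values are a description. It is among the lower calls counted over the 14 regulators.

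In all, 10 genes with the prefixes had no probe above background on any array and were not tested. Beside the tissue-restricted forms they were Atp5k, Cox16, Ndufs1, Uqcrfs1 and Uqcrq. Ndufs1 and Uqcrfs1 encode core iron-sulfur subunits that every respiring cell uses, so for these probes no signal says nothing about the gene's level. Of 13 genes with more than 1 probe above background on at least 2 arrays, the probes' calls differed for 2 genes in plasmablasts against naive B cells, 5 in plasma cells against naive B cells and 3 in plasma cells against plasmablasts, and only the Ndufv3 probes were called in opposite directions.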

How the data were processed

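RNA of 7 sorted spleen samples was hybridised to Illumina MouseRef-8 arrays, with the design's bisulfite sequencing left out here. The deposited scanner table holds an intensity per probe and array that was not normalized, exported with GenomeStudio 2011.1 per the submitters' processing notes. No signal in it was under 101.8, so it still held background. A detection p-value per probe stands in the same deposited table. A second deposited table holds an intensity that the authors had normalized, within 0.0119 log2 units of quantile normalized scanner values, and it served as an alternative.

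In R 4.3.3, limma 3.58.1 (neqc, offset 16) corrected background from the detection p-values, quantile normalized the 7 arrays and took log2. Probes were named from GEO's platform table (23978 with 1 symbol) and symbols updated through RefSeq GRCm38.p6. Named probes with a detection p under 0.01 on at least 2 arrays were kept, and the probe with the highest mean stood for a gene. lmFit and eBayes fitted 3 population means (4 residual and 3.78 prior degrees of freedom). Calls had a Benjamini-Hochberg adjusted p under 0.05 over 7425 genes, two-sided. A fold against a population below background on all its arrays is "at least", measured to the lowest signal above background, 6.27 to 6.79 by array. On data simulated for plasmablasts against naive B cells (7161 genes), the fit recovered 62% of 100 genes changed by 0.5 and 97% of 100 changed by 1 in raw log2 signal, and called 14 of 6961 unchanged genes. Few genes changed in the simulation, up and down alike, while 73.1% were called in the data. The adjusted p threshold thus admits larger raw p-values in the data. The simulated rates, false calls included, therefore do not carry over to these data.

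The members and lists were chosen with earlier results of these data known. Named genes were up to 3 called higher and 3 lower per complex and comparison by size, without overlap between the arrays compared, the Sdh and Atp5g genes, tissue-restricted forms and Ndufa4, genes called in opposite directions, and up to 3 called per list and comparison. Sort markers, the common partner forms Cox4i1 and Cox6a1, Cox17 and Cycs were named beside these after their values were seen. Roles of Atp5pb, Atp5mpl and Ndufs5-ps were added after the files were opened. Of the written lists, 13 of 17 carrier and entry genes, 17 of 24 outside assembly factors, 14 of 18 regulators, 8 of 9 sort markers, 16 of 24 myeloid, 9 of 13 erythroid and platelet and 9 of 15 T and NK cell markers were tested. The alternatives were 3 other normalizations, 2 other background settings, 2 filters, 2 probe rules, fits on the arrays compared alone, a replicate block, and leaving out each array. Promoters came from the RefSeq table, using a gene's first listed start.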

Additional observations from a re-analysis of the deposited data

How the results depend on the processing

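With 4 residual degrees of freedom, small differences rest on few arrays, and probes below background in a population, such as those of Cox4i2, Cox6a2 and Ndufab1, give only a bound there. Over 59 named genes, 3024 of 3171 values under an alternative kept direction and side of the threshold, 92 were no longer called, 54 became called, and 1 reversed: Atp5g2 between plasmablasts and naive B cells was 0.26 with 75th percentile scaling, against -0.02. Where a value changed, the cause was not tested. Higher and lower counts over the 85 genes between plasmablasts and naive B cells stayed within 1.5 times the reported ones under each alternative (38 to 61 higher and 9 to 12 lower), as did those between plasma cells and naive B cells (17 to 34 and 17 to 25). Counting each of 101 detected probes gave 55 higher and 13 lower, and 28 and 22. Between plasma cells and plasmablasts, cyclic loess called 7 higher and 25 lower. Cyclic loess moved the median of all genes by 0.17 in plasma cells against naive B cells and by 0.21 against plasmablasts, and testing all named probes moved it by 0.17 between plasma cells and plasmablasts. Under cyclic loess, 66.7% of the calls between plasma cells and naive B cells were higher, against 53.3%, and 21.9% between plasma cells and plasmablasts, against 8.16%. Over all genes these shares moved too, to 56.6% against 46.8%, and to 52.5% against 38.4%. By complex, cyclic loess gave 16 higher for complex I and 8 for complex IV in plasma cells against naive B cells. Against plasmablasts it gave 12 lower for complex I, 2 for complex II, 2 for complex III and 3 for complex IV. It also gave 1 higher for complex II there. Of all genes, cyclic loess called 39.7% higher in plasma cells against naive B cells, and 36.3% higher and 32.9% lower against plasmablasts. With 75th percentile scaling, complex III had 5 higher and 0 lower and complex V 13 and 0 in plasmablasts against naive B cells. Complex IV had 7 higher in plasma cells against naive B cells. Against plasmablasts, complex IV had 12 and complex V 15 lower in plasma cells. Of all genes, this scaling called 39.7% higher and 34.7% lower in plasmablasts against naive B cells. It called 33.9% higher in plasma cells against naive B cells, and 50.1% lower against plasmablasts. The authors' normalized table and no background correction each gave 7 higher for complex IV in plasma cells against naive B cells. Both, and an offset of 50, gave 2 lower for complex III there. Of all genes, 33.8% were higher and 39% lower with either of the former, and 33.6% and 38.7% with the offset. Fitting only the arrays compared called 1 higher for complex II in plasma cells against plasmablasts, where 28.3% of all genes were called higher. Deviations of same-numbered arrays correlated at -0.03 to 0.17 over 2 shared numbers, so the numbers do not establish pairs. With the replicate block, 42 were higher and 11 lower in plasmablasts, and 21 and 20 in plasma cells, against naive B cells. In plasma cells against plasmablasts, 4 were higher and 35 lower, with 2 lower for complex II and 5 for complex V. Of all genes, the block called 34.5% higher and 36.6% lower, 32.9% and 37.5%, and 28% and 44.5% in these comparisons. Leaving out 1 array at a time gave 38 to 47 higher and 10 to 12 lower in plasmablasts against naive B cells, 17 to 23 higher and 17 to 22 lower in plasma cells against naive B cells, and 4 to 5 higher and 35 to 42 lower in plasma cells against plasmablasts. It gave 2 to 4 lower for complex I in plasmablasts against naive B cells (2 without naive B cell replicate 1). In plasma cells against naive B cells it gave 5 to 8 higher for complex I (5 without plasma cell replicate 1), 1 to 3 for complex II (1 without naive B cell replicate 2), 1 to 3 for complex III (1 without plasma cell replicate 2) and 3 to 5 for complex V (3 without naive B cell replicate 1 or plasma cell replicate 1). In plasma cells against plasmablasts complex II had 0 to 1 higher (1 without either naive B cell replicate) and 2 to 4 lower (2 without plasmablast replicate 3 or plasma cell replicate 2). Atpaf2 in plasma cells against naive B cells was -0.79, and -0.02 to -0.11 without either naive B cell replicate or any plasmablast replicate. The probe with the highest mean was picked again from the arrays kept, so these values can come from another Atpaf2 probe. Which probe gave them was not checked.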
